A study of Rattus norvegicus with 9 samples.

Results

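The miR-191 and miR-425 cluster is a pair of microRNA (miRNA) genes that lie next to each other on rat chromosome 8 and are read from the same strand. Its reads were followed through 9 small RNA libraries of the rat left ventricle. The members were all sequences annotated to the rat entries mir-191 and mir-425, whichever strand of the hairpin they came from and whether or not they matched the database sequence exactly. There were 574 such sequences among 31220 annotated to rat entries and 46358 annotated to entries of any species. Of these, 496 belonged to mir-191 and 78 to mir-425.

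Each library came from 1 layer of the left ventricular wall (epicardium, mid-myocardium or endocardium) of 1 of 3 male Sprague-Dawley rats aged 8 months. The rats had no treatment or genetic change that the labels name, and hearts 6, 7 and 8 each gave all 3 layers. The layers were separated by cuts about 1 mm from the outer and inner surfaces, so each is a mixture of cell types and not a purified population. In such bulk tissue, fewer cells of a type and less RNA per cell cannot be told apart. The recovered annotated reads ran from 283991 in mid-myocardium of heart 6 to 1428025 in endocardium of heart 7. Abundance is given as reads per 1000000 annotated reads (RPMM), on which 3 reads correspond to between 2.10 and 10.6 RPMM. The 6 cardiomyocyte miRNAs checked (miR-1, miR-133a, miR-133b, miR-208, miR-208b and miR-499) were detected in all 9 libraries, with a summed level of 53981 to 142202 RPMM.

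A miRNA hairpin is cut by Drosha in the nucleus and by Dicer in the cytoplasm, which leaves a short duplex. Usually 1 strand of the duplex is loaded into an Argonaute protein and the other strand, written here with *, is degraded. Bases 2 to 8 of the loaded strand, the seed, choose most target mRNAs, so a cut moved at the 5′ end gives another seed, while changes at the 3′ end leave the seed as it is. Reads that depart from the database sequence are called isomiRs, and bases that do not match the hairpin at the 3′ end are called non-templated tails. miR-191 and miR-425 are made in many tissues and have often been used as reference miRNAs in expression studies.

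In the RefSeq annotation of the GRCr8 assembly the Mir191 hairpin lay at chr8:118142627-118142717 and the Mir425 hairpin at chr8:118143084-118143166, both on the + strand, with 366 bases between them. Both hairpins lay within the span of Dalrd3, a protein-coding gene (chr8:118142009-118147082). The tables used here do not say whether they fall in an exon or an intron. A further miRNA hairpin, Mir3555 (chr8:118142611-118142730), covers the Mir191 hairpin on the opposite strand. Only 1 annotated sequence carried its name (mir-3555 or mir-191b). The full hairpins are shown because every member read was placed on them, and the capitals mark the arms that RefSeq lists as mature strands.

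Mir191 hairpin: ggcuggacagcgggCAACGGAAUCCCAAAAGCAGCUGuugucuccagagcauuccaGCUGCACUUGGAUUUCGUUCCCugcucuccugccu
Mir425 hairpin: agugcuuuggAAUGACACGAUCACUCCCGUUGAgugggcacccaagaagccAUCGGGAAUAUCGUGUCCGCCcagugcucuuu

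The 4 mature strands are given next with the seed in capitals, because the strands share no seed and so cannot be pooled as a family.

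rno-miR-191a-5p: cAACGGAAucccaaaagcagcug
rno-miR-191a-3p: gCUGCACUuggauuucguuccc
rno-miR-425-5p: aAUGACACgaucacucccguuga
rno-miR-425-3p: aUCGGGAAuaucguguccgcc

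The 5p strands are the major strands, called miR-191 and miR-425 below, and the 3p strands are miR-191* and miR-425*. Among the 693 mature rat miRNAs named in the same RefSeq table, the seeds of miR-191, miR-425 and miR-425* occurred once each, and the seed of miR-191* was shared with miR-17-2-3p.

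The first question was how many reads of each strand the left ventricle libraries held. miR-191 was among the most abundant rat miRNAs in every library, whereas miR-425 from the neighbouring hairpin was far rarer and both * strands were close to the limit of detection. miR-191 had 145990 reads over the 9 libraries and ranked between 10 and 15 among the rat entries of a library. Its level was 24367, 17793 and 22863 RPMM in epicardium of hearts 6, 7 and 8, 21811, 13773 and 13544 RPMM in mid-myocardium, and 20241, 19175 and 20359 RPMM in endocardium. The ranges of the 3 layers overlapped, and the 2 lowest libraries were mid-myocardium of hearts 7 and 8. miR-425 had 1134 reads and ranked between 95 and 117. Its level was 193, 208 and 135 RPMM in epicardium, 148, 121 and 111 RPMM in mid-myocardium, and 193, 129 and 126 RPMM in endocardium. The 3 ranges overlapped here as well, and the highest values were in hearts 6 and 7.

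In RPMM, miR-191 had 131 ± 27.5 times the reads of miR-425 (SD, n = 9 libraries). The study points out that adapter ligation and PCR may skew read numbers between miRNAs. The ratio and the ranks above therefore describe reads and not amounts in the tissue. The ratio was lowest in epicardium of heart 7 (85.7) and highest in epicardium of heart 8 (169), so the layers did not separate. The mean log2 ratio was 6.94 in epicardium and 7.09 in endocardium, a difference of 0.15 (exact two-sided permutation test, p = 0.7, Benjamini-Hochberg adjusted over the 14 ratio and share tests made here 0.7). With 3 libraries against 3 the smallest p this test can give is 0.1. Within hearts, where the smallest possible p is 0.25, the exact test of the same difference gave p = 1.

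**Figure D1:**
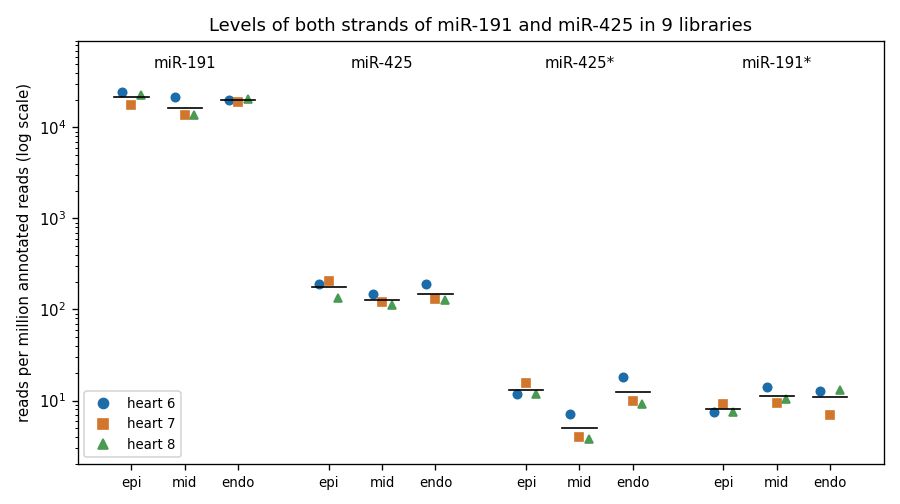
Level of the major and * strands of miR-191 and miR-425 in reads per 1000000 annotated reads on a log scale, for epicardium (epi), mid-myocardium (mid) and endocardium (endo). Each point is 1 library, its shape and colour give the heart, and the black bars are means of 3 libraries. miR-191 lies between 13544 and 24367 RPMM and miR-425 between 111 and 208 RPMM. Of the strands shown, only miR-425* has its mid-myocardial points below those of both other layers, on 2, 3 and 4 reads. The share of other entries with this order was not counted.

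The share of * strand reads differed between the hairpins. miR-191* had 72 reads in all, between 4 and 11 per library, and made up 0.0541% ± 0.0170 of the reads of its entry (SD, n = 9). miR-425* had 77 reads, between 2 and 14 per library, and made up 6.03% ± 1.98. The share of the * strand was higher for miR-425 in 9 of 9 libraries, by 5.98 percentage points on average (two-sided exact sign-flip test over 9 libraries, p = 0.0039, the smallest it can give, adjusted 0.027). The 3 libraries of a heart share an animal, and over the 3 heart means the exact test cannot go below p = 0.25, which it gave. Among the 94 rat entries with at least 1000 reads, the median * share was 0.248%, and miR-425 ranked 18 and miR-191 ranked 69 from the highest. In single libraries the 95% Wilson interval for the miR-425* share ran from 1.09% to 8.97% in mid-myocardium of heart 7 and from 5.13% to 14.3% in endocardium of heart 6. For miR-191* it reached 0.166% at most, in mid-myocardium of heart 6. These intervals cover counting error only, because copies made by PCR were counted as reads and carry no molecular identifier.

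The question that the layers address is whether cardiac miRNAs differ across the ventricular wall. Neither major strand passed the test between layers. For both, mid-myocardium lay below epicardium of the same heart in 3 of 3 hearts. The share of all entries with that order was not counted, so it is a description only. In limma on log2(RPMM + 1) with Benjamini-Hochberg adjustment, 0 of 228 rat entries passed an adjusted p of 0.05 between endocardium and epicardium, between mid-myocardium and epicardium, or between mid-myocardium and endocardium, which is a background of 0% in each. At an unadjusted p of 0.05 there were 13, 13 and 8 such entries, and edgeR and DESeq2 called 0 in each comparison as well.

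miR-191 was 19925 ± 652 RPMM in endocardium against 21674 ± 3444 in epicardium (SD, n = 3 each). The log2 difference was -0.11 with a standard error of 0.26, and its 95% interval ran from -0.68 to 0.47 (limma, adjusted p = 0.989). Mid-myocardium held 16376 ± 4708 RPMM, a log2 difference of -0.43 from epicardium (95% interval -1.003 to 0.15, limma adjusted p = 0.854) and of -0.32 from endocardium (-0.89 to 0.26, limma adjusted p = 0.887). The Baggerley beta-binomial test, which the study used, gave a different answer for the last of these. It called 16 of 224 entries between mid-myocardium and endocardium, miR-191 among them (adjusted p = 4.01e-04), and 3 and 2 entries in the comparisons of endocardium and of mid-myocardium with epicardium, where miR-191 was not called. All 3 endocardial libraries lay within 19175 to 20359 RPMM, and the mid-myocardial library of heart 6, at 21811 RPMM, lay above them.

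miR-425 was 149 ± 37.6 RPMM in endocardium, 179 ± 38.2 in epicardium and 127 ± 19.0 in mid-myocardium (SD, n = 3 each). Its log2 difference was -0.26 between endocardium and epicardium (95% interval -0.87 to 0.35, limma adjusted p = 0.989), -0.48 between mid-myocardium and epicardium (-1.09 to 0.13, limma adjusted p = 0.854) and -0.22 between mid-myocardium and endocardium (-0.83 to 0.39, limma adjusted p = 0.899). Those intervals still hold a 2-fold lower level in mid-myocardium than in epicardium for both miRNAs. With the heart as a block, the adjusted p of that comparison in limma was 0.613 for miR-191 and 0.568 for miR-425.

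The * strands were rare in every layer. miR-191* was 8.02 ± 0.926 RPMM in epicardium, 11.3 ± 2.50 in mid-myocardium and 10.9 ± 3.42 in endocardium. miR-425* had 11, 12 and 11 reads in epicardium of hearts 6, 7 and 8, but 2, 3 and 4 in mid-myocardium and 13, 14 and 7 in endocardium. In RPMM these were 13.03 ± 2.20, 4.94 ± 1.82 and 12.4 ± 5.07 (SD, n = 3 each). The mid-myocardial libraries, at 3.8 to 7.04 RPMM, did not overlap with epicardium (11.7 to 15.6) or endocardium (9.21 to 18.3). The share of all tested entries with such a separation was not counted, so it cannot be called particular to miR-425*. The log2 difference of mid-myocardium was -1.27 from epicardium (standard error 0.32, limma, adjusted p = 0.529) and -1.16 from endocardium (limma, adjusted p = 0.887), so neither passed the test over all entries. Over the alternatives the adjusted p ran from 0.238 to 0.925 against epicardium and from 0.307 to 0.966 against endocardium. The mid-myocardial value of heart 6 rests on 2 reads, below the 3 reads that correspond to 10.6 RPMM in that library. Beside this, the summed level of the fibroblast miRNAs miR-199a and miR-214 was 2644 to 2832 RPMM in mid-myocardium, 1512 to 2270 in epicardium and 1476 to 2730 in endocardium. That of the 6 cardiomyocyte miRNAs was 105585 to 142202, 53981 to 106902 and 61556 to 103423 RPMM. In the same order endothelial miR-126 was at 6187 to 6377, 4185 to 8274 and 3285 to 5646 RPMM. The smooth muscle miRNAs miR-143 and miR-145 summed to 91344 to 124732, 96905 to 154241 and 97410 to 143841 RPMM. For the leukocyte and red cell miRNAs checked, the mid-myocardial range overlapped with those of both other layers. The part of cell composition in the miR-425* values was not tested.

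**Figure D2:**
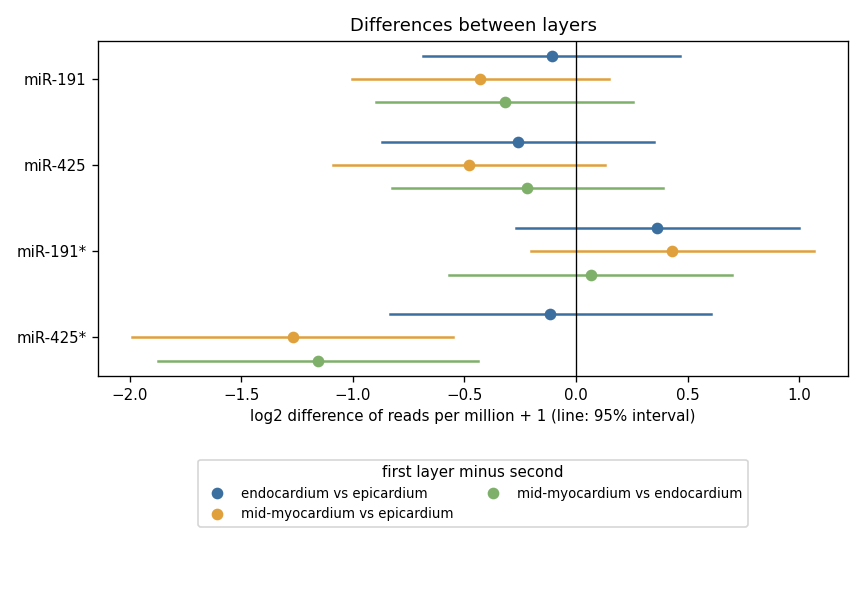
Differences between layers on the log2(RPMM + 1) scale for the 4 strands, as estimates (points) with 95% intervals (lines) from limma, each the first named layer minus the second. The intervals of miR-191, miR-425 and miR-191* include 0, and those of miR-425* for both comparisons of mid-myocardium lie below 0 before adjustment, with adjusted p-values of 0.529 and 0.887.

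As miR-191 and miR-425 have served as reference miRNAs, their spread was set beside that of 14 others. These are in common use as references or were reference genes in the qPCR of the study (such as miR-16, miR-103, miR-93, miR-423, let-7a and miR-484). Over the 9 libraries the SD of log2(RPMM + 1) was 0.30 for miR-191 and 0.33 for miR-425. It ran from 0.19 (miR-103) to 1.32 (miR-100, a qPCR reference gene of the study) in the list, with a median of 0.28. Of the 14, 6 varied more than miR-191 and 5 more than miR-425. Among 122 rat entries with a mean of at least 100 RPMM the median SD was 0.33, and 70 varied more than miR-191. None of the 14 was called by limma between layers or hearts, against 0% of all entries. At an unadjusted p of 0.05 the count was 0 between layers, against 3.51% to 5.7% of all entries. Between hearts it was 3 of the 14, against 12.3% of all entries. Their median log2 difference was 0.04 between endocardium and epicardium and 0.14 between mid-myocardium and epicardium, and over all 228 entries it was 0.02 and 0.05.

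The correlation between the neighbours was moderate, and miR-425 rested on 42 to 184 reads per library. The part of counting error in this correlation was not tested. Over the 9 libraries the Pearson correlation of log2(RPMM + 1) between miR-191 and miR-425 was 0.50, which placed miR-425 at 9 among 121 entries by likeness to miR-191 and miR-191 at 23 by likeness to miR-425. The entries most like miR-191 were miR-204 (r = 0.79), miR-181a (0.71), miR-140* (0.71), miR-331 (0.70) and miR-151* (0.66). The entries most like miR-425 were miR-320 (0.82), miR-140* (0.82), miR-195 (0.77), miR-497 (0.76) and miR-204 (0.75). The 9 points come from 3 hearts and share the total on which RPMM is computed, so these values are descriptions.

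The next question was which sequences make up each entry. Most miR-191 reads were the database sequence, and most miR-425 reads were not. The exact mature sequence made up 76.6% ± 5.74 of miR-191 reads and 6.77% ± 4.28 of miR-425 reads (SD, n = 9). It was lower for miR-425 in 9 of 9 libraries, with a mean difference of -69.8 percentage points (exact sign-flip test, p = 0.0039 and adjusted 0.027 over libraries, p = 0.25 over the 3 heart means, the smallest each can give). Among the 94 rat entries with at least 1000 reads the median exact share was 28.8%, miR-191 ranked 6 from the highest and miR-425 ranked 74. The most frequent miR-191 sequences show where the variation lies. They are printed as read, in DNA letters with the seed in capitals.

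miR-191, mature: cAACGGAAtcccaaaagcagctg
miR-191, 1 templated base longer at the 3′ end: cAACGGAAtcccaaaagcagctgt
miR-191, 1 base shorter at the 3′ end: cAACGGAAtcccaaaagcagct
miR-191, 1 base shorter at the 5′ end: aACGGAATcccaaaagcagctg
miR-191, mature with a non-templated A: cAACGGAAtcccaaaagcagctga

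The mature form had 111757 reads, and the 4 forms below it had 11110, 5556, 4283 and 2728, or 7.61%, 3.81%, 2.93% and 1.87% of the entry. Of these 4, only the form that is 1 base shorter at the 5′ end (4283 reads) has a changed seed, and no mature rat miRNA in the RefSeq table had that seed. The most frequent sequences of miR-425 were these.

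miR-425, 1 base shorter at the 3′ end: aATGACACgatcactcccgttg
miR-425, 2 templated bases longer at the 3′ end: aATGACACgatcactcccgttgagt
miR-425, mature: aATGACACgatcactcccgttga
miR-425, 1 base shorter with a non-templated T: aATGACACgatcactcccgttgt
miR-425, 1 templated base longer at the 3′ end: aATGACACgatcactcccgttgag

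The form without the terminal A of the database entry was the main sequence of miR-425, with 775 reads (68.3% of the entry). The others had 101, 83, 58 and 23 reads (8.91%, 7.32%, 5.11% and 2.03%). The share of the shortened form was lowest in mid-myocardium of heart 8 (53.8%) and highest in mid-myocardium of heart 6 (83.3%, of 42 reads), and it exceeded the exact mature share in every library. In that shallowest library 0 of 42 miR-425 reads were the exact mature sequence. There 3 reads would make up 7.14%, which is a floor for detection and not a confidence limit. The next base of the hairpin is itself A, so a read of the exact mature sequence cannot be told apart from the shortened form with an added A.

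**Figure D3:**
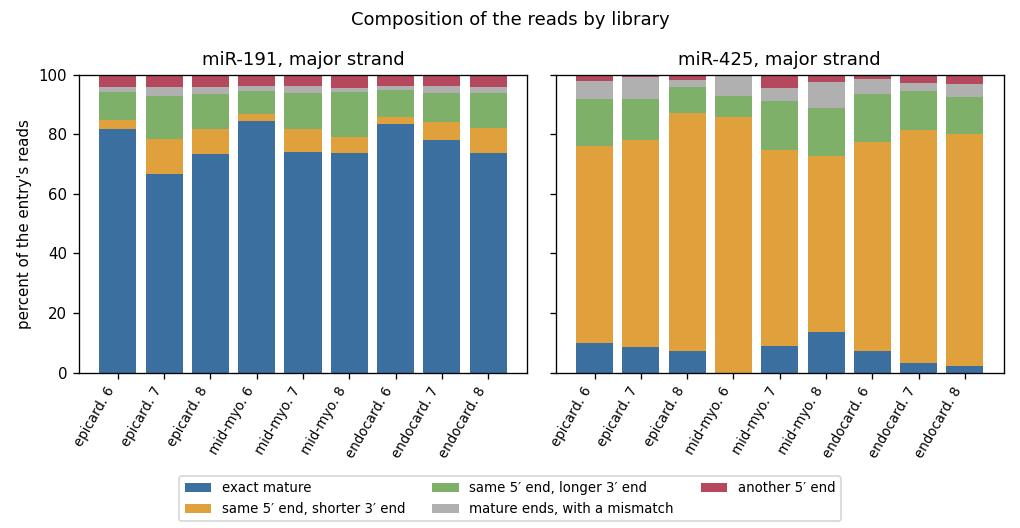
Share of the major strand reads of miR-191 and miR-425 in each library that were the exact mature sequence, had the mature 5′ end with a shorter or longer 3′ end, had both mature ends with a mismatch, or had another 5′ end (stacked to 100%). The exact sequence takes between 66.8% and 84.3% of miR-191 and between 0% and 13.7% of miR-425, where reads with a shorter 3′ end dominate.

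The 5′ end was far more uniform than the 3′ end in both entries. It was the mature 5′ end in 96.0% ± 0.220 of miR-191 reads and 97.9% ± 1.33 of miR-425 reads (SD, n = 9). Another 5′ end was found in 4.01% ± 0.220 and 2.08% ± 1.33, a difference of -1.93 percentage points (exact sign-flip test, p = 0.0078 and adjusted 0.036 over 9 libraries, p = 0.25 over heart means). For miR-425 this is 24 reads in all, of which 2 were precursor reads from the 3p arm. At the 3′ end, 81.8% of miR-191 reads stopped at the mature end and 10.6% 1 base beyond it, whereas 70.1% of miR-425 reads stopped 1 base before the mature end, 12.7% at it and 10.5% 2 bases beyond it. The most frequent miR-425 sequence with another 5′ end had 4 reads and a seed that no mature rat miRNA in the RefSeq table had.

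miR-425, 1 base shorter at the 5′ end and 2 templated bases longer at the 3′ end: aTGACACGatcactcccgttgagt

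**Figure D4:**
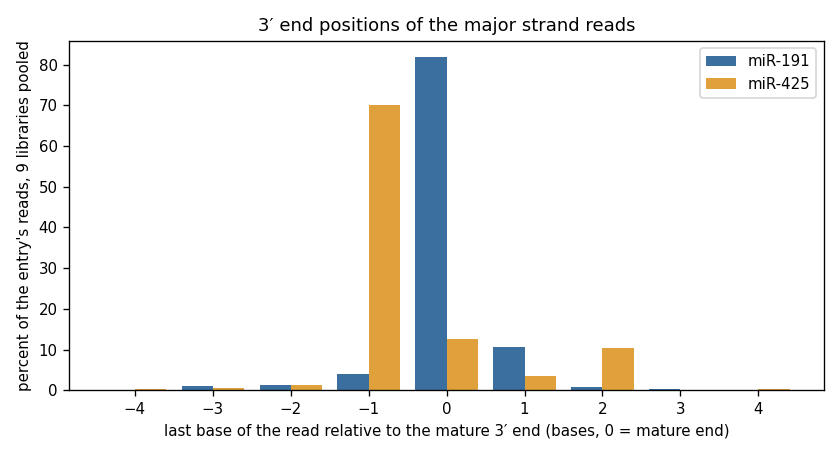
Position of the last base of major strand reads relative to the mature 3′ end, as a percentage of the reads of the entry with the 9 libraries pooled. miR-191 peaks at 0 with 81.8% and miR-425 at -1 with 70.1%, and miR-425 has a further 10.5% at 2.

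Bases that do not match the hairpin at the 3′ end were found on 4.63% ± 2.28 of miR-191 reads and 7.77% ± 2.12 of miR-425 reads (SD, n = 9). On miR-191 single A made up 56.9% of the tailed reads, AA 12.4% and single T 10.1%. On miR-425 single T made up 74.4% of the tailed reads (67 reads) and single A 11.1% (10 reads). The hairpins hide different bases from these counts. The base after mature miR-191 is T, so a T added to it is read as the templated form (11110 reads), and the base after the shortened miR-425 is A, so an added A is read as the mature form (83 reads). The shares of A and T tails therefore cannot be compared within or between the entries.

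The * reads departed from the RefSeq 3p strands at the 5′ end, where the seed lies. Their most frequent sequences were as follows.

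miR-191*: cTGCACTTggatttcgttccc
miR-425*: cATCGGGAatatcgtgtccgcc

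Of 72 miR-191* reads, 50 (69.4%, 95% Wilson interval 58.0 to 78.9) began 1 base after the RefSeq start, and 17 began at it. Of 77 miR-425* reads, 49 (63.6%, interval 52.5 to 73.5) began 1 base before the RefSeq start, and 19 began at it. Neither of these shifted seeds was found among the mature rat miRNAs in the RefSeq table. The reads of all libraries are pooled here, since no library had more than 14 of a * strand.

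For no isomiR share was a difference between endocardium and epicardium detectable with 3 libraries against 3. The exact mature share of miR-191 was 78.4% in endocardium and 74.0% in epicardium (exact two-sided permutation test, p = 0.4), and that of miR-425 was 4.21% and 8.61% (p = 0.2). The miR-191 share with another 5′ end was 3.84% and 4.18%, and the 3 endocardial libraries lay below the 3 epicardial ones (exact permutation test, p = 0.1, the smallest possible, and 0.25 within hearts). The other 7 shares tested gave exact permutation p-values between 0.2 and 0.6, and over the 10 shares the adjusted values ran from 0.35 to 0.646. In limma on single sequences, 0 of 2513 rat sequences and 0 of 155 exact mature sequences were called between these layers (background 0% in both, with 69 and 4 at an unadjusted p of 0.05, and 0 by edgeR and DESeq2). The exact mature sequence of miR-191 differed by -0.02 on the log2 scale (95% interval -0.75 to 0.70) and that of miR-425 by -1.29 (-3.34 to 0.77). The miR-425 value rests on 18, 14 and 9 reads in epicardium of hearts 6, 7 and 8 against 10, 6 and 2 in endocardium. The study's list of fold changes between these layers also holds this sequence, with the higher mean in epicardium. Between mid-myocardium and either other layer, 0 of 155 exact mature sequences were called (0%), with 10 and 8 at an unadjusted p of 0.05.

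In a comparison of single sequences added after the data were seen, 3 forms of miR-191 were called between hearts. The entry total was not. As entries, 0 of 228 were called between hearts 6, 7 and 8 by limma's F test with layer in the model (0%, with 28 at an unadjusted p of 0.05), and edgeR called 7 and DESeq2 10, none of them a member. Adjusted p was 0.702 for miR-191 and 0.592 for miR-425. Among exact mature sequences 3 of 155 were called (1.94%), which were those of miR-99b, miR-100 and miR-144, and again no member (limma adjusted p = 0.588 for miR-191 and 0.953 for miR-425). This count was 0 without any 1 of the 3 epicardial or 3 endocardial libraries. Among single sequences 42 of 2513 were called (1.67%). Of 46 member sequences tested, 42 of miR-191 and 4 of miR-425, 3 were called and 8 had an unadjusted p under 0.05. All 3 called were miR-191 sequences with a tail, counted from the first mismatch to the hairpin near the 3′ end. In the form with TT only the first T mismatches the hairpin. Its second T is also the templated base after the mature end. That read therefore cannot be told apart from the form with 1 templated base more and a substituted base before it. The called sequences are printed with the seed in capitals.

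miR-191, 1 base shorter at the 3′ end with TT added: cAACGGAAtcccaaaagcagcttt
miR-191, 1 base shorter at the 5′ end with A added at the 3′ end: aACGGAATcccaaaagcagctga
miR-191, 1 base shorter at the 3′ end with T added: cAACGGAAtcccaaaagcagctt

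The form with TT had 2, 0 and 1 reads in epicardium, mid-myocardium and endocardium of heart 6, against 18, 6 and 21 in heart 7 and 38, 5 and 32 in heart 8 (limma adjusted p = 0.0159). The form with A had 5, 1 and 1 reads in heart 6, 27, 11 and 33 in heart 7, and 62, 15 and 21 in heart 8 (limma adjusted p = 0.0240). The form with T was at 9.84 to 23.4 RPMM in heart 6, 71.7 to 176 in heart 7 and 31.3 to 205 in heart 8 (limma adjusted p = 0.0253). Every library of heart 6 lay below every library of hearts 7 and 8 for all 3 forms. The forms were picked by the test on these same values, so this order is no further support for a difference. The share of all sequences with this order was not counted.

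The untailed form 1 base shorter at the 3′ end showed the same order, at 179 to 263 RPMM in heart 6, 629 to 1473 in heart 7 and 377 to 1334 in heart 8, but was not called (limma adjusted p = 0.0734). The mature form was at 16867 to 19946 RPMM in heart 6, 10204 to 14980 in heart 7 and 9996 to 16769 in heart 8, so that heart 6 was the highest, and it was not called (limma adjusted p = 0.80). The form with 1 templated base more did not separate the hearts, at 1338 to 1882, 1220 to 1525 and 1357 to 1606 RPMM.

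The calls rest on few libraries. Leaving out epicardium of heart 6, 7 or 8 or endocardium of heart 6 left 0 of all sequences and 0 of the member sequences called, and without mid-myocardium of heart 7 there were 17 calls with 1 member among them. Over the libraries left out, the adjusted p of the 3 forms ran from 0.00576 to 0.142 (TT), 0.0125 to 0.189 (A) and 0.00694 to 0.197 (T). edgeR called 87 sequences and a pseudocount of 10 gave 80, with 5 members each.

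**Figure D5:**
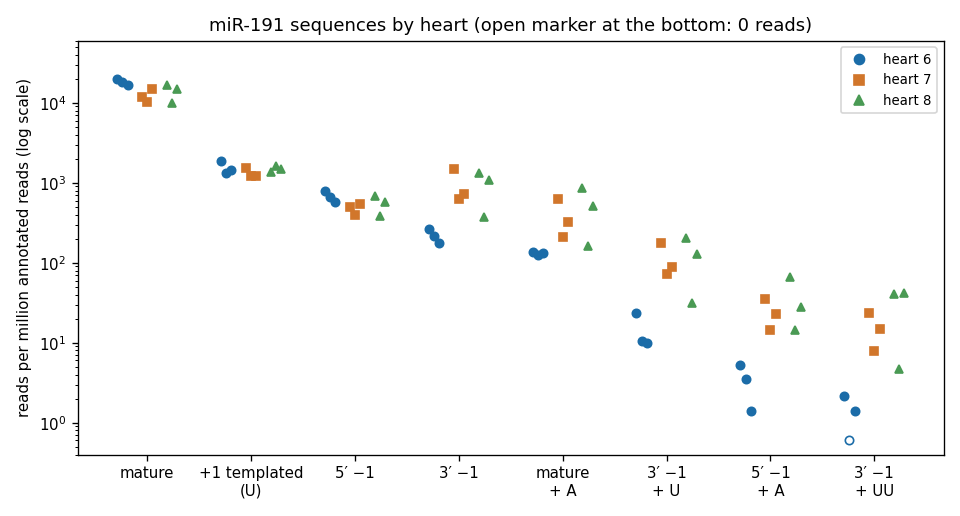
Level of 8 miR-191 sequences in reads per 1000000 annotated reads (log scale) by heart, with 1 point for each layer; +, added bases; −1, 1 base lost at the named end; U in the labels is T in the printed reads, and an open marker stands for 0 reads. Heart 6 lies below hearts 7 and 8 for the 5 forms on the right, which are trimmed at the 3′ end or carry a tail, and not for the 3 forms on the left. The 3 forms furthest right were picked by the test between hearts.

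As shares of miR-191 reads, which do not depend on the library total, heart 6 again stood apart in all 3 layers. These shares were chosen after their values were seen and carry no test. Reads with a shorter 3′ end made up 2.57% to 3.04% in heart 6, 6.28% to 11.98% in heart 7 and 5.50% to 8.61% in heart 8. Tails of A only were on 1.43% to 1.65%, 3.03% to 5.77% and 2.83% to 5.56% of the reads, and tails of T only on 0.0484% to 0.109%, 0.592% to 1.16% and 0.274% to 1.12%. The share with another 5′ end did not separate the hearts, with means of 3.94%, 3.95% and 4.13%. For miR-425 the corresponding shares overlapped between hearts, with 59.8% to 85.7% of reads having a shorter 3′ end over the 9 libraries.

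The same 3′ forms were compared in other abundant miRNAs to see whether heart 6 was low in all of them. Of 80 rat entries with at least 50 reads of the mature sequence less its last base, the share of that form was lower in all 3 libraries of heart 6 than in all others for 7 (miR-191, miR-100, miR-99a, miR-142, miR-199a, miR-30b and miR-30d) and higher for 2. Of 69 with at least 50 reads of the mature sequence plus A, it was lower for 6 and higher for 4. For the mature sequence less its last base plus T the counts were 4 lower and 4 higher of 68, and for the mature sequence plus T they were 3 lower and 8 higher of 69. Most of the other single sequences called between hearts belonged to miR-99b (9), miR-100 (7), miR-125a (6) and miR-125b (5). The level of miR-99b was 1675 to 2573 RPMM in heart 6, 7825 to 15064 in heart 7 and 3681 to 20704 in heart 8. The part of the animal, the dissection or the library preparation in these differences cannot be told apart, since each heart was 1 animal.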

How the data were processed

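The authors trimmed the reads and annotated them against miRBase v18 with CLC Genomics Workbench v4.0, allowing 2 mismatches and 3 bases added or lost at either end. They deposited each annotated sequence as RPM, written RPMM, over the annotated reads of its library, and a grouped signal per miRNA on 2 totals. They also deposited the raw count of unannotated sequences that reached a minimum number of reads. Multiplying by the annotated total turned 100% of the RPMM values into whole reads, within 0.01 reads.

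Rat rows were summed by entry and strand and placed on the RefSeq hairpins (GRCr8) without gaps, and a tail began at the first mismatch among the last 3 bases. A feature was tested where any library had 10 or more of its reads. limma 3.58.1 (R 4.3.3) was run on log2(RPMM + 1) over all features with Benjamini-Hochberg adjustment, and single values were tested by exact permutation (Python 3.11.15, scipy 1.17.1, pandas 2.3.3). edgeR 4.0.16, DESeq2 1.42.0 and Baggerley's test were alternatives on the recovered reads. The fits and placement were tested on simulated data.

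Hearts pair the libraries because each animal gave all 3 layers. The mean correlation of deviations was 0.149 within and -0.0724 between hearts. Members and lists were chosen with earlier results of these data known. Named sequences were, for each major strand, the mature one, the 5 with the highest mean and the most abundant with another 5′ end or last base; for likeness, the 5 entries with the highest correlation. Heart comparisons of single and exact sequences, and the sequences named from them, were added after seeing the data.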

Additional observations from a re-analysis of the deposited data

Results flagged for a closer look

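Among the unannotated reads, which enter no comparison above, 133 reads on 2 sequences carried miR-191 sequence. They were the mature sequence followed by AAA (105 reads) and by AAAT (28 reads), so their tails hold 3 or more mismatches to the hairpin, past the 2 that the annotation allowed. No control samples exist for these reads. The AAA form had 6, 0 and 8 reads in epicardium, mid-myocardium and endocardium of heart 6, 16, 4 and 20 in heart 7, and 36, 6 and 9 in heart 8. A search for any 14 bases in a row found 0 unannotated sequences with miR-425 sequence and 0 on the opposite strand of either hairpin. The deposited unannotated sequences are only those that reached a minimum number of reads. The search therefore cannot show that rarer reads of this kind were absent, above all for miR-425, which had few reads.

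A further 154 reads on 9 sequences were annotated to the miR-191 entry of a lizard, Anolis carolinensis, and were left out because the members are rat entries. They had 11, 4 and 7 reads in epicardium, mid-myocardium and endocardium of heart 6, 15, 12 and 32 in heart 7, and 48, 6 and 19 in heart 8.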

How the results depend on the processing

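Of the counts, shares and ratio tested, 287 values under alternatives stayed the same, 28 counts moved, 2 values reversed and 3 no longer passed the test. For a share or the ratio, the same means an unchanged direction and side of the threshold. For a count it means an equal number or one within a set factor of it. Baggerley's test called 3 entries between endocardium and epicardium, 2 between mid-myocardium and epicardium and 16 between mid-myocardium and endocardium, miR-191 among the last (-0.42 on the log2 scale). Leaving out 1 library at a time gave 0 to 1 entries in the first and the last of these comparisons, with the call made without endocardium of heart 7. Between hearts, entries called were 5 with a pseudocount of 10, 4 with at least 10 reads in every library, 1 on the total of rat reads, 7 by edgeR, 10 by DESeq2 and 0 to 3 with a library left out. Exact mature sequences called between hearts were 0 to 4 with a library left out, and single sequences were 87 by edgeR, 80 with a pseudocount of 10 and 0 to 66 with a library left out; the alternatives for both were chosen after seeing the data.

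The difference in miR-425* share between endocardium and epicardium reversed to -0.885 percentage points with sequences of at least 10 reads only. With a library left out, the log2 ratio of miR-191 to miR-425 differed by -0.10 to 0.39, miR-425* between endocardium and epicardium by -0.41 to 0.052, and miR-191* between mid-myocardium and endocardium by -0.20 to 0.21 (-0.017 on the total of rat reads). With the heart as the replicate block, the differences between miR-425 and miR-191 of -69.8, -1.93 and 5.98 percentage points had exact p = 0.25, the smallest possible. The heart block changed no other call, and miR-425* had an adjusted p of 0.251 between mid-myocardium and epicardium under it in limma. The * strands had too few reads for a value under the filter of 10 reads in every library. The cause of these changes was not tested. Counts of 2 to 14 reads limit every statement on the * strands, and 42 to 184 reads those on the composition of miR-425.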
